A study of Bos taurus with 12 samples.

Results

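The proteasome degrades proteins that carry ubiquitin chains. Its core is a barrel of alpha and beta rings with the catalytic sites inside, and a cap made of a base with ATPases and a lid opens the barrel, unfolds the substrate and removes the ubiquitin. In cells that respond to interferon, alternative catalytic subunits and the activator PA28 change the peptides that the core releases for display on MHC class I molecules.

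The genes described here are those of the array's annotation whose symbol is PSMA, PSMB, PSMC, PSMD, PSME, PSMF or PSMG followed by digits. They number 46 of 15229 annotated symbols, with 78 of 43794 probes, and the similarly named PSMC3IP is not among them. No probe was annotated to PSMD13 or PSME3, which are not analysed here. A filter on dim probes left 45 genes with 76 probes. PSMA8, an alpha subunit known from testis, lost its only probe, and PSMD1 lost 1 of its probes. On all 12 arrays both channels of the 45 genes exceeded background.

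RNA came from bovine cumulus cells, the somatic cells around the oocyte, taken from ovaries of slaughtered animals and grouped by the chromatin of the oocyte they enclosed. The stages GV0, GV1, GV2 and GV3 name successive states of germinal vesicle chromatin condensation, and the labels name no treatment for any of them. The cells of 10 complexes of a stage made a pool, and nothing in the labels ties pools to different animals. The p-values of the main fit therefore refer to the variation among these pools, which may be technical. Amplified RNA of GV1, GV2 or GV3 in Cy5 was hybridised with GV0 RNA in Cy3, with 4 arrays per stage on the 4 areas of 1 slide.

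A value below is the log2 ratio of a stage over GV0, given for areas 1 to 4 in that order. Changes were tested in limma with n = 4 arrays per stage and Benjamini-Hochberg adjustment over 36321 probes, and a gene was called where its brightest kept probe had an adjusted p under 0.05. Each slide held 1 stage, so slide and stage cannot be told apart, and a dye effect stays in a ratio to GV0. The 3 comparisons with GV0 use GV0 as a common reference. Cy3 signals correlated between 0.988 and 0.997 within an area number across slides. Between different areas of different slides the range was 0.923 to 0.972, and areas of the same slide were not compared. Arrays of an area number may thus share a GV0 pool, which the labels do not state, and pool and position on the slide cannot be told apart. The median spot signal of an array was 132 to 230.5 in Cy5 and 277 to 373 in Cy3. All 11 cumulus and granulosa markers examined, FSHR, AMH and FOXL2 among them, were above background in both channels on the 12 arrays. Of these, 0, 2 and 0 were higher and 1, 1 and 1 lower than in GV0 in GV1, GV2 and GV3. GATM was lower in each stage (-1.64, -2.25 and -1.70), and INHA (0.86) and HSD3B1 (0.80) were higher in GV2. Their part in the proteasome values was not tested.

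Against GV0, 2 of 45 proteasome genes were higher in GV1, 2 in GV2 and 2 in GV3, and 1 was lower in GV3. The share of all 13534 named genes that passed the same test was 9.47% in GV1, 10.3% in GV2 and 11% in GV3, above the share of the proteasome genes in each comparison. Split by direction, 3.78%, 4.58% and 4.3% of the named genes were higher and 5.69%, 5.73% and 6.7% lower. PSMB8 and PSME1 were the genes called higher in each stage, and PSMG1 was the gene called lower. At an unadjusted p under 0.05 there were 8, 11 and 9 proteasome genes. The named genes under that threshold were 3415, 3489 and 3631 of 13534, again a larger share in each stage. The median of the 45 genes was 0.18 in GV1, 0.18 in GV2 and 0.13 in GV3, beside 0.00, 0.00 and -0.01 over the named genes. With median centring in place of loess the medians of the 45 genes were 0.40, 0.47 and 0.37. The 45 genes were bright, at a median percentile of 93.1 of mean log2 signal among the kept probes (46.2 to 99.0). Comparisons with the named genes, here and below, were not matched for brightness.

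Counts of calls turned on how the area number was treated. With it as a replicate block, which leaves the spread between areas out of the test, 13, 19 and 16 proteasome genes were called, of which 2, 2 and 2 were lower. In that fit 29.8%, 29.7% and 30.8% of the named genes were called, 14.7%, 15.6% and 14.7% higher and 15%, 14.1% and 16.1% lower. Block calls against GV0, here and for single genes below, leave out any variation that the arrays of an area share. That may include the variation among GV0 pools, so their p-values may run low. With the area as a random effect the proteasome genes called were 3, 2 and 4, beside 8.37%, 9.45% and 11% of the named genes.

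**Figure D1:**
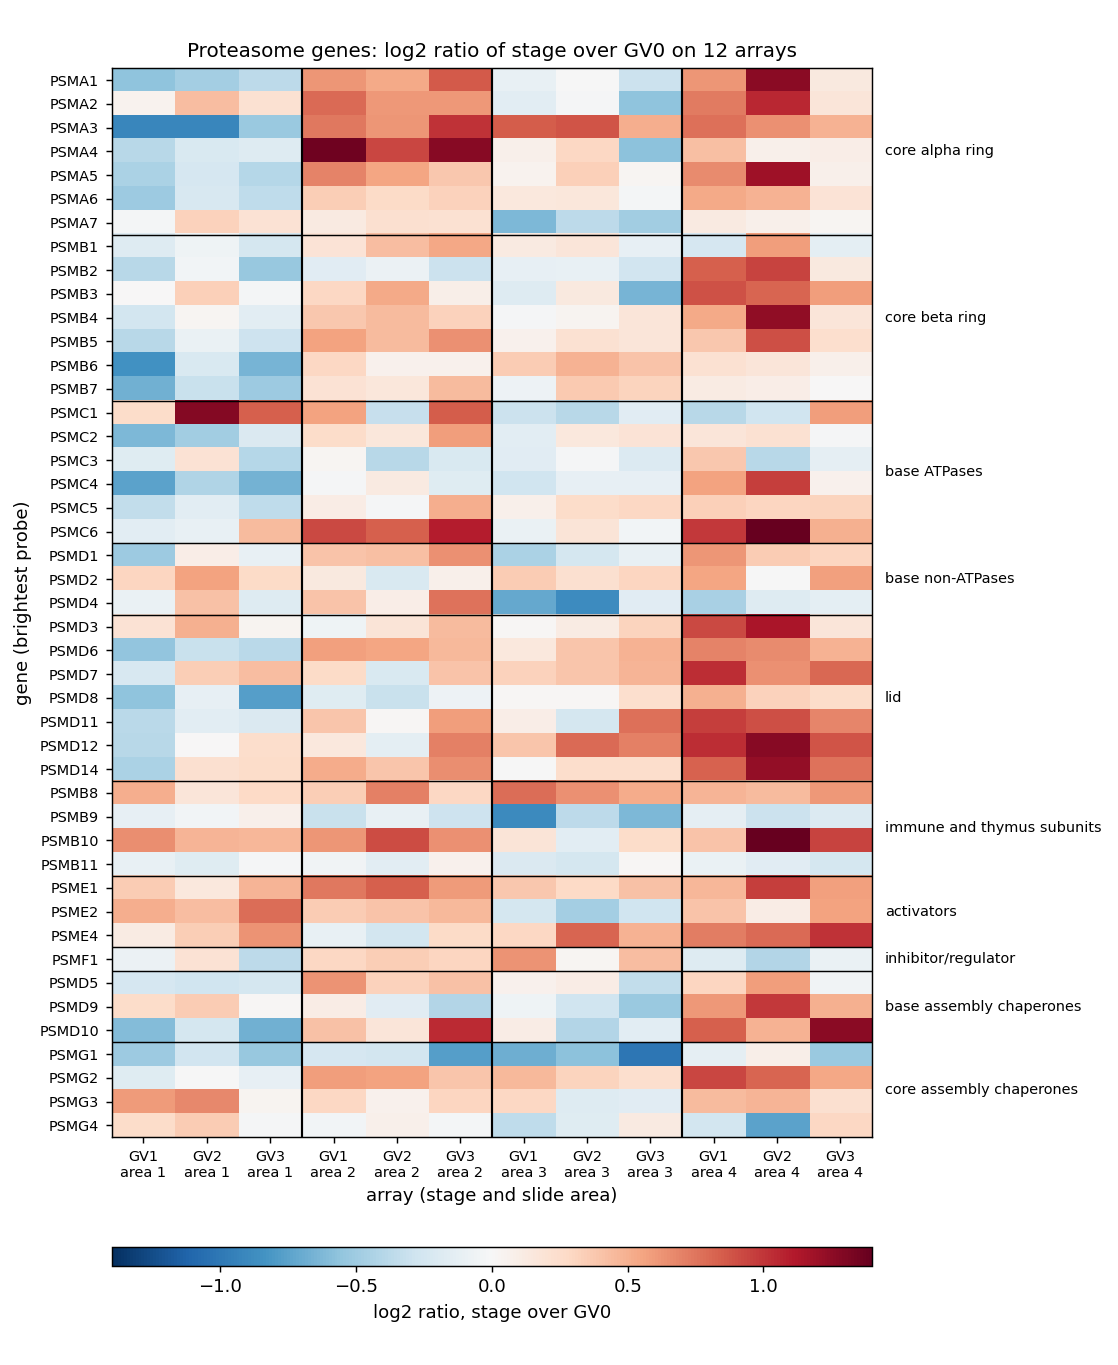
Log2 ratio of stage over GV0 (colour, from blue below 0 to red above 0) for the brightest kept probe of each of 45 proteasome genes (rows, grouped by role) on 12 arrays (columns, grouped by slide area and, within an area, by stage). The medians of the 30 core, base and lid genes run from -0.38 to -0.08 in the columns of area 1 and from 0.18 to 0.64 in those of areas 2 and 4.

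Of the immune catalytic subunits, PSMB8 was higher in all 3 stages. It takes the place of PSMB5 in the immunoproteasome. Its log2 ratios were 0.51, 0.34, 0.78 and 0.48 in GV1, 0.16, 0.71, 0.64 and 0.44 in GV2, and 0.28, 0.29, 0.52 and 0.61 in GV3. They lay above 0 on each of the 12 arrays, and the 3 stages overlapped. The coefficient was 0.53 in GV1 (SE 0.10, adjusted p = 0.00919), 0.49 in GV2 (SE 0.10, adjusted p = 0.0119) and 0.42 in GV3 (SE 0.10, adjusted p = 0.0204). The spots of PSMB8 were dim, at 229.7 to 382 in Cy5 and 312 to 427 in Cy3 before background correction. The calls held in 22, 20 and 19 of 28 alternatives. Some of the 28 could change little, for this gene and for those below. Scaling between arrays leaves the ratios as they are. So does the mean over the probes of a gene with 1 kept probe, such as PSMB8 and PSME1. Leaving out an array of another stage keeps the coefficient and changes only its spread. The number of alternatives in which a call held is thus no measure of its stability. With median spot signals the coefficients were 0.63, 0.49 and 0.25 (adjusted p = 0.0933, 0.166 and 0.475), and with the series matrix values 0.49, 0.38 and 0.20 (adjusted p = 0.0883, 0.154 and 0.475). Leaving out 1 array ended the call in GV2 for area 2 (0.42, adjusted p = 0.0589) and in GV3 for area 3 (0.39, adjusted p = 0.0781) and area 4 (0.36, adjusted p = 0.0966). Leaving out area 3 or area 4 on all 3 slides ended it in each stage, and leaving out area 2 ended it in GV2 and GV3, with adjusted p between 0.0605 and 0.141.

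PSMB10, which replaces PSMB7, had ratios of 0.65, 0.62, 0.18 and 0.39 in GV1, 0.47, 0.91, -0.15 and 1.39 in GV2, and 0.46, 0.64, 0.25 and 0.95 in GV3. Area 3 was lowest on each slide, and 11 of 12 arrays were above 0. The coefficients of 0.46, 0.66 and 0.57 (SE 0.20 each) did not pass the test (adjusted p = 0.164, 0.0580 and 0.0881). With the replicate block PSMB10 was called in each stage (adjusted p = 0.0332, 0.00835 and 0.0137). The second PSMB10 probe gave 0.22, 0.34 and 0.28 and was not called.

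PSMB9, which replaces PSMB6, lay on the other side of 0. Its spots were dim too, at 176 to 354 in Cy5 and 362 to 542 in Cy3 before background correction. Its ratios were -0.11, -0.31, -0.89 and -0.12 in GV1, -0.04, -0.11, -0.37 and -0.30 in GV2, and 0.08, -0.29, -0.63 and -0.19 in GV3. Area 3 was lowest on each slide, as for PSMB10. The coefficients of -0.36, -0.20 and -0.26 (SE 0.14 each) did not pass (adjusted p = 0.114, 0.369 and 0.245). With the replicate block PSMB9 was called lower in GV1 (adjusted p = 0.00939) and in GV3 (adjusted p = 0.0324). Without the GV1 array of area 3 the GV1 value was -0.18. PSMB11, the thymus-specific catalytic subunit, had coefficients of -0.11, -0.18 and -0.05 and was called with the block in GV2 alone (adjusted p = 0.0350). In the RefSeq gene order of the ARS-UCD2.0 assembly PSMB8 and PSMB9 lie on either side of TAP1, and PSMB11 lies beside PSMB5.

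The constitutive subunits that these genes replace were not called in any stage, and with the block PSMB5 was called in GV2 (adjusted p = 0.0165). PSMB5, the chymotrypsin-like subunit, had ratios of -0.39, 0.56, 0.06 and 0.37 in GV1, -0.10, 0.44, 0.22 and 0.90 in GV2, and -0.29, 0.64, 0.17 and 0.23 in GV3. On each slide area 1 was below 0 and the other areas above it. PSMB6, the caspase-like subunit, had -0.84, 0.29, 0.36 and 0.21 in GV1, -0.22, 0.06, 0.48 and 0.17 in GV2, and -0.65, 0.06, 0.40 and 0.07 in GV3. PSMB7, the trypsin-like subunit, had -0.67, 0.20, -0.07 and 0.11 in GV1, -0.31, 0.16, 0.36 and 0.09 in GV2, and -0.51, 0.45, 0.31 and 0.00 in GV3. Both had their lowest ratio in area 1 on each slide. The coefficients were 0.15, 0.36 and 0.19 for PSMB5 (SE 0.19 each), 0.01, 0.12 and -0.03 for PSMB6 (SE 0.21) and -0.11, 0.08 and 0.06 for PSMB7 (SE 0.17), with adjusted p from 0.240 to 0.990.

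**Figure D2:**
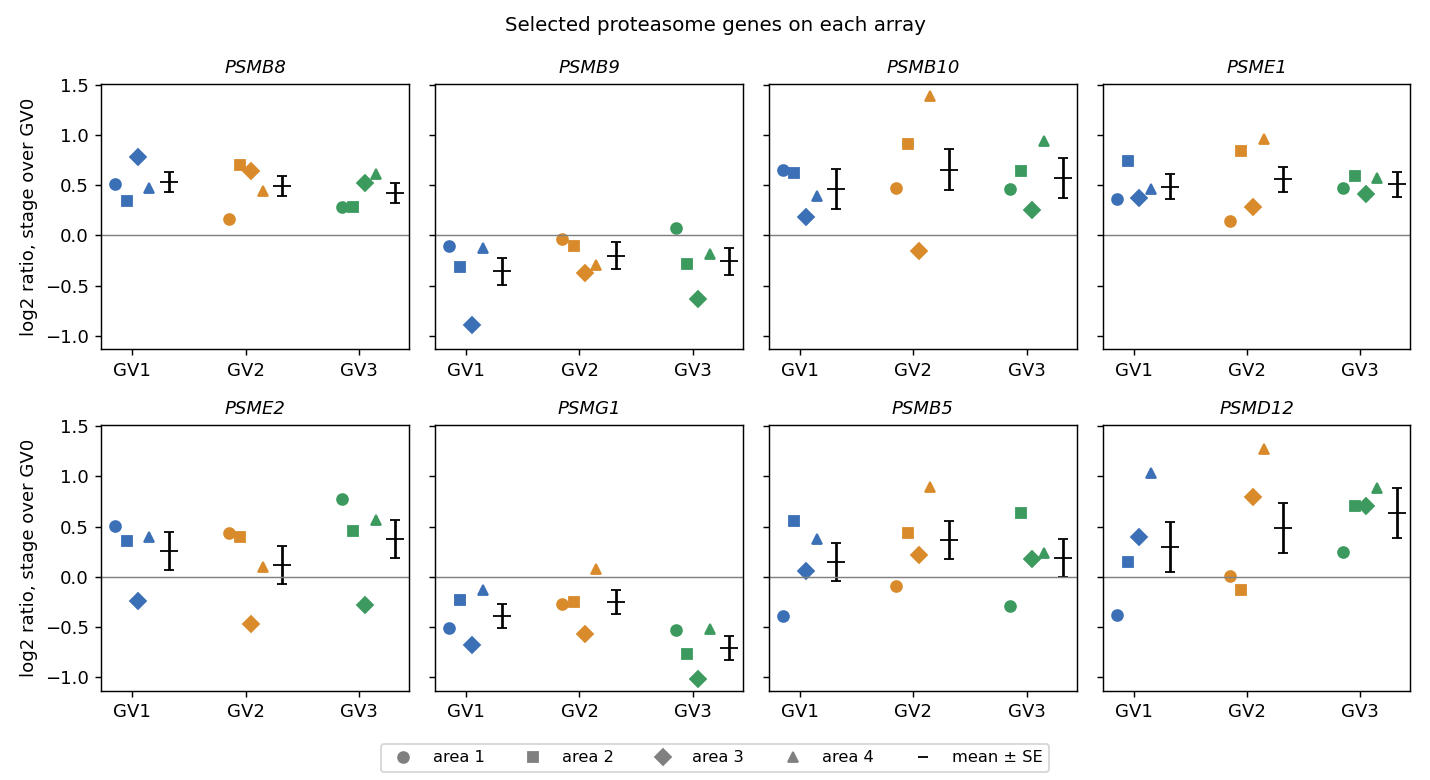
Log2 ratio of stage over GV0 (vertical axis) on each array for 8 proteasome genes, with 1 point per slide area and the limma coefficient with its SE (bar) beside the 4 points of a stage. PSMB8 and PSME1 lie above 0 on all 12 arrays, while PSMB5 is below 0 in area 1 and PSME2 below 0 in area 3 on each slide.

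Among the activators, PSME1 was higher in all 3 stages. PSME1 and PSME2 encode the alpha and beta chains of PA28, which opens the core without ubiquitin or ATP. The PSME1 ratios were 0.36, 0.74, 0.37 and 0.46 in GV1, 0.15, 0.84, 0.28 and 0.96 in GV2, and 0.47, 0.59, 0.41 and 0.57 in GV3. Each of the 12 was above 0, with the widest spread in GV2 and overlap between the stages. The coefficient was 0.49 in GV1 (SE 0.12, adjusted p = 0.0323), 0.56 in GV2 (SE 0.12, adjusted p = 0.0176) and 0.51 in GV3 (SE 0.12, adjusted p = 0.0239). The calls held in 15, 20 and 18 of 28 alternatives. With median spot signals the coefficients were 0.53, 0.56 and 0.64 (adjusted p = 0.131, 0.102 and 0.0521). The series matrix values ended the GV1 and GV2 calls (adjusted p = 0.0989 and 0.0663). So did flagged spots in the background fit (adjusted p = 0.119 and 0.0577). The GV1 call was lost where both channels had to exceed background on all arrays (adjusted p = 0.0557). The arrays of 1 stage alone gave no call. Leaving out any GV1 array ended the GV1 call (0.40 to 0.53, adjusted p between 0.0612 and 0.133), and leaving out any GV3 array ended the GV3 call (0.49 to 0.55, adjusted p between 0.0572 and 0.0905). The GV2 call was lost without area 2 (0.46, adjusted p = 0.0812) or area 4 (0.42, adjusted p = 0.0838). Leaving the same areas out on all slides ended the same calls (adjusted p between 0.0525 and 0.163).

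PSME2 had ratios of 0.51, 0.35, -0.24 and 0.40 in GV1, 0.44, 0.40, -0.47 and 0.10 in GV2, and 0.78, 0.46, -0.28 and 0.57 in GV3. On each slide area 3 was below 0 and the other areas above it, and area took 87.2% of the sum of squares of its 12 ratios. The coefficients of 0.25, 0.12 and 0.38 (SE 0.19 each) did not pass (adjusted p = 0.427, 0.746 and 0.221). With the block PSME2 was called in GV1 (adjusted p = 0.0159) and GV3 (adjusted p = 0.00250). In the RefSeq gene order EMC9 alone stands between PSME2 and PSME1.

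PSME4 encodes PA200, a nuclear activator linked to the degradation of acetylated histones in mouse testis. Its brightest probe had ratios of 0.12, -0.11, 0.29 and 0.71 in GV1, 0.35, -0.26, 0.82 and 0.79 in GV2, and 0.63, 0.27, 0.48 and 1.02 in GV3. All GV3 arrays were above 0, while area 2 was below 0 in GV1 and GV2. The coefficients were 0.25, 0.42 and 0.60 (SE 0.18 each, adjusted p = 0.412, 0.164 and 0.0575), and with the block the GV2 and GV3 values were called (adjusted p = 0.00951 and 0.00190). A second probe, above 0 on all 12 arrays, gave 0.58, 0.77 and 0.81 (SE 0.17) and passed in GV2 (adjusted p = 0.0188) and GV3 (adjusted p = 0.0139). The dimmest PSME4 probe gave 0.16, 0.14 and 0.36 and did not pass. PSMF1, a proline-rich regulator that inhibits the core in vitro, had coefficients of 0.17, 0.04 and 0.07 for its brightest probe and adjusted p from 0.562 to 0.899. Of its other 3 probes 1 was called lower in GV3, at -0.43 (SE 0.08, adjusted p = 0.00785).

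The core is assembled with the chaperone pairs PSMG1 with PSMG2 and PSMG3 with PSMG4, and PSMG1 was lower in GV3. Its ratios were -0.51, -0.23, -0.68 and -0.13 in GV1, -0.27, -0.25, -0.57 and 0.08 in GV2, and -0.53, -0.77, -1.02 and -0.52 in GV3. GV2 area 4 was the 1 array above 0, and in each area the GV3 array was below the GV1 and the GV2 array. The coefficient in GV3 was -0.71 (SE 0.12, adjusted p = 0.00498), and those of -0.39 in GV1 and -0.25 in GV2 did not pass (adjusted p = 0.0625 and 0.199). With the block PSMG1 was also called lower in GV1 (adjusted p = 0.00326) and GV2 (adjusted p = 0.0174). The GV3 call held in 25 of 28 alternatives. It was lost with median centring in place of loess (-0.42, adjusted p = 0.182), on the GV3 arrays alone (-0.71, adjusted p = 0.0653) and without area 2 of all slides (-0.69, adjusted p = 0.0562).

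The 4 PSMG1 probes did not give 1 picture. The next brightest probe had -0.92, -0.82, -0.70 and -0.51 in GV3, with coefficients of -0.43, -0.29 and -0.74 (SE 0.11 each). It was called in GV1 (adjusted p = 0.0360) and GV3 (adjusted p = 0.00326). The other probes gave -0.09 (SE 0.08) and -0.18 (SE 0.16) in GV3 and were not called in any stage. Their GV1 and GV2 coefficients lay above 0, between 0.03 and 0.14. All 4 probes were above background in both channels on the 12 arrays. The mean over the 4 probes was -0.43 in GV3 (adjusted p = 0.0223).

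**Figure D3:**
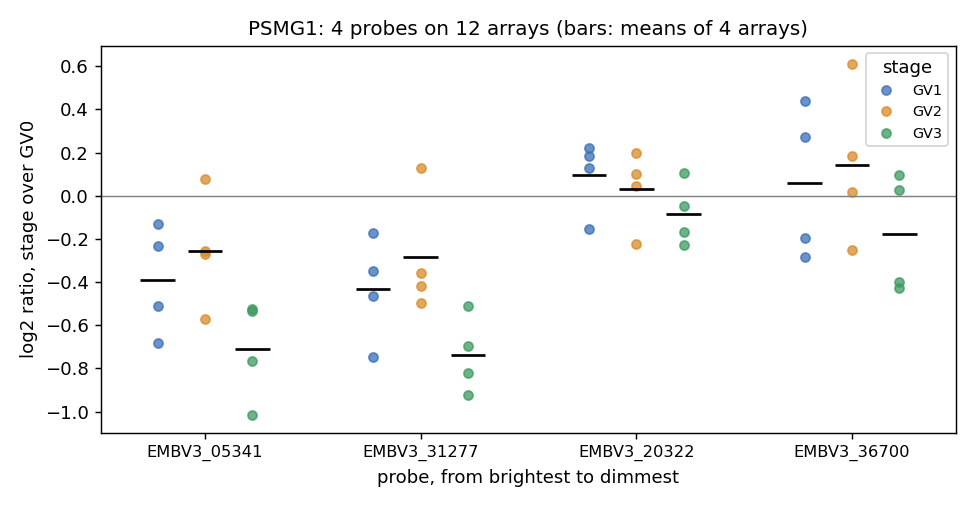
Log2 ratio of stage over GV0 (vertical axis) for the 4 probes of PSMG1 (horizontal axis, from brightest to dimmest), with 1 point per array and a bar at the mean of the 4 arrays of a stage. The brightest probes have GV3 means of -0.71 and -0.74, the dimmer ones of -0.09 and -0.18.

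PSMG2, the partner of PSMG1, had coefficients of 0.45, 0.42 and 0.26 (SE 0.17 each) and was not called. Its ratios were -0.17, 0.59, 0.46 and 0.94 in GV1, -0.01, 0.57, 0.31 and 0.81 in GV2, and -0.12, 0.39, 0.24 and 0.54 in GV3. Area 1 was below 0 and area 4 highest on each slide. With the block PSMG2 was called higher in each stage (adjusted p = 0.00124, 0.00153 and 0.00997). PSMG3 was at 0.40, 0.26 and 0.10 and PSMG4 at -0.10, -0.12 and 0.09, and neither passed. With the block PSMG3 was called in GV1 (adjusted p = 0.0154).

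The 30 constitutive core, base and lid subunits held no call in any stage, with medians of 0.14, 0.23 and 0.13. At an unadjusted p under 0.05 limma gave 1, 5 and 4 of them, beside 3415, 3489 and 3631 of the 13534 named genes. With the replicate block 5, 11 and 8 of the 30 were called, all higher, beside 14.7%, 15.6% and 14.7% of the named genes called higher in that fit. PSMA3 of the alpha ring (0.36, 0.31 and 0.37, adjusted p = 0.0283, 0.0499 and 0.0252) and PSMD6 of the lid (0.22, 0.32 and 0.26, adjusted p = 0.0416, 0.00887 and 0.0196) were called there in each stage and were named after their values were seen. The block also called PSMA2 and PSMB3 in GV1 and GV2, and PSMD2 in GV1 and GV3. It called PSMC6, PSMD12 and PSMD14 in GV2 and GV3, PSMA5, PSMB4, PSMB5 and PSMD3 in GV2, and PSMD7 and PSMD11 in GV3. In the alpha ring, which gates the barrel, the coefficients ran from -0.10 for PSMA7 to 0.37 for PSMA4 in GV1, from 0.06 for PSMA7 to 0.52 for PSMA2 in GV2 and from -0.01 for PSMA7 to 0.37 for PSMA3 in GV3. PSMA2 had 6 kept probes, of which 1, among the dimmer ones, was called in GV2 (0.44, SE 0.10, adjusted p = 0.0198). In the beta ring PSMB3, a structural subunit, had the highest GV2 value (0.46, SE 0.20, adjusted p = 0.166).

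Of the base ATPases, which unfold substrates, PSMC6 had 0.42, 0.58 and 0.50 (SE 0.27 each), with adjusted p from 0.198 to 0.357. A dimmer PSMC6 probe gave -0.13, -0.35 and 0.03. PSMD2, a scaffold of the base, had 0.34, 0.14 and 0.30 (SE 0.12 each, lowest adjusted p 0.0928), and 1 of its other probes was called in GV1 (0.49, SE 0.12, adjusted p = 0.0290). The ubiquitin receptor gene PSMD4 was at -0.22, -0.14 and 0.07. In the lid PSMD12, a structural subunit, had 0.30, 0.48 and 0.63 (SE 0.25 each), and PSMD14, which cuts off the ubiquitin chain, had 0.22, 0.52 and 0.48 (SE 0.21 each). Of the base assembly chaperones PSMD5, PSMD9 and PSMD10, the last had the largest value, 0.37 in GV3 (SE 0.31, adjusted p = 0.478). With the block PSMD9 was called higher in GV2.

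Of the 45 genes 26 rested on 1 kept probe and 19 on several. Probes of 5 genes differed in the call, namely PSME4, PSMD2, PSMA2, PSMG1 and PSMF1. Probes of 13 genes differed in sign in at least 1 stage.

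The constitutive subunits varied with the slide area more than with the stage. Their median ratio in area 1 was -0.38 in GV1, -0.08 in GV2 and -0.21 in GV3. In area 2 it was 0.32, 0.20 and 0.48, in area 3 it was 0.00, 0.15 and 0.10, and in area 4 it was 0.55, 0.64 and 0.18. Of the 30 subunits 16 were below 0 in area 1 on all 3 slides, 20 were above 0 in area 2 and 24 in area 4. In area 3, 11 were above 0 and 9 below 0 on all 3 slides. Such signs were not counted for the named genes. Area took over 50% of the sum of squares in 60.6% of the named genes and in 86.7% of the 30 subunits. In area 1, 4 of the 30 were above 0 on all 3 slides, a count not made for the named genes. Among the 4 was the base ATPase PSMC1, with 0.26, 1.29 and 0.83 in area 1 of GV1, GV2 and GV3. The median over the named genes lay between -0.03 and 0.01 on each array.

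**Figure D4:**
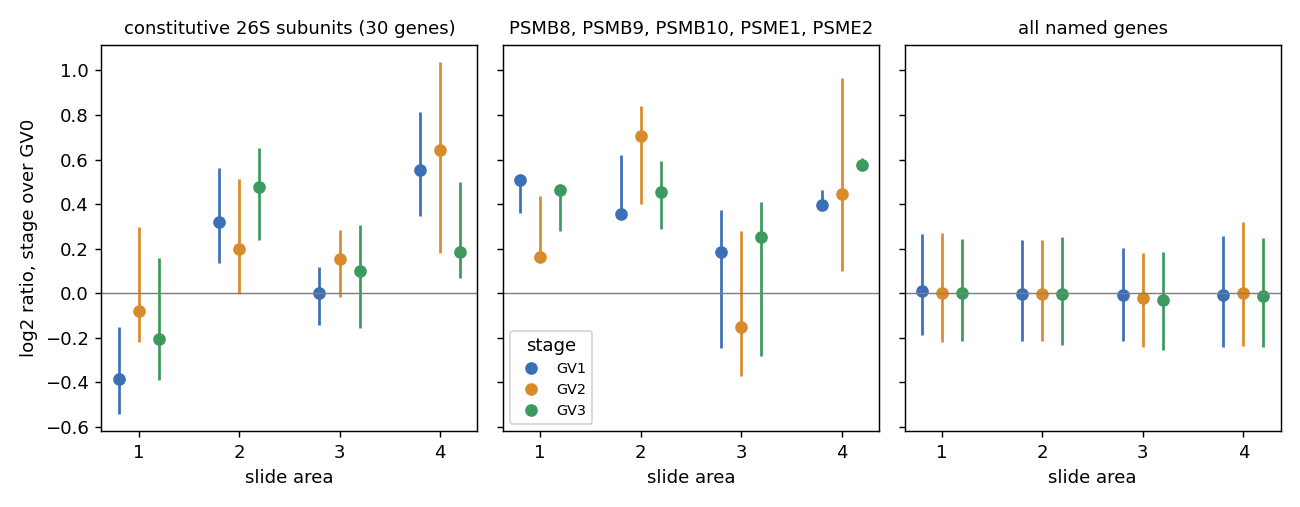
Median log2 ratio of stage over GV0 (vertical axis, points) with the range from the lower to the upper quartile of genes (lines), by slide area (horizontal axis) and stage (colour), for 30 constitutive subunits, for PSMB8, PSMB9, PSMB10, PSME1 and PSME2, and for all named genes. The constitutive subunits are lowest in area 1 on each slide, while the medians of all named genes lie between -0.03 and 0.01.

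In the Cy3 channel, which holds GV0, the subunits were highest in area 1, where the ratios were lowest, and lowest in areas 2 and 4. The channel values are log2 signals after loess and Aquantile scaling, each as the difference from the gene's mean over the 12 arrays. In Cy3 the median of the 30 subunits was 0.38 to 0.39 in area 1 on the 3 slides, -0.26 to -0.22 in area 2, 0.05 to 0.06 in area 3 and -0.24 to -0.21 in area 4. In Cy5 it ran from -0.14 to 0.20 in area 1 and from -0.15 to 0.21 in area 4. The Cy3 medians thus differed more between areas than between the slides of an area. Whether this lies with the GV0 pools or the positions on the slide cannot be told apart. In such RNA, fewer cells of a type and less RNA per cell cannot be told apart.

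**Figure D5:**
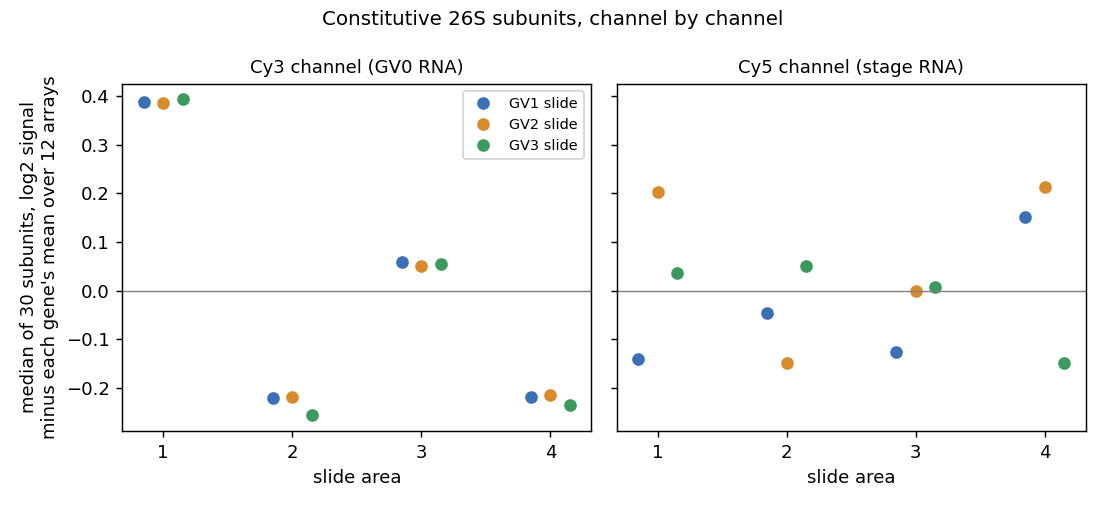
Median over 30 constitutive subunits of the log2 signal minus each gene's mean over 12 arrays (vertical axis), by slide area (horizontal axis) and slide (colour), for the Cy3 channel with GV0 RNA and the Cy5 channel with stage RNA. The 3 slides nearly coincide in Cy3, from 0.38 to 0.39 in area 1, and spread in Cy5, from -0.14 to 0.20 there.

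Area accounted for a median of 74.0% of the sum of squares of a proteasome gene's 12 ratios around their mean, and for 58.3% over the named genes. The median for stage was 8.19% beside 8.56%. In the alpha ring the median for area was 85.9%, and PSMA3 reached 94.2%. PSMG1 had the highest share for stage, 43.5%, and PSMC3 the lowest for area, 5.09%. After the stage means were removed, pairs of proteasome genes had a median correlation of 0.32 over the 12 arrays, which share 4 area numbers, and pairs of named genes of 0.00. The median was 0.75 in the lid, 0.63 in the alpha ring and 0.56 in the beta ring. It was 0.18 among PSMB8, PSMB9, PSMB10, PSME1 and PSME2.

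Between the stages 0 proteasome genes were called, as were 0% of the named genes in limma, with adjusted p of 1.00 (rounded). At an unadjusted p under 0.05 there were 0, 0 and 1 proteasome genes for GV2 against GV1, GV3 against GV1 and GV3 against GV2. That gene was PSMG1, at -0.46 in GV3 against GV2 (SE 0.17, unadjusted p = 0.0219). The named genes under that threshold were 129, 272 and 373 of 13534. With the replicate block, which sets the arrays of an area against each other, the proteasome counts at that unadjusted threshold were 0, 6 and 8. For the named genes that count was not made with the block. No share therefore stands beside these counts, and their genes are only listed. After adjustment 0 proteasome genes passed with it (lowest adjusted p 0.986, 0.574 and 0.346). In GV3 against GV1 the 6 were PSMG1, PSMG2, PSMB2, PSMB3 and PSMD9, all below 0, and PSME4 above it. In GV3 against GV2 they were PSMG1, PSMB2, PSMB3, PSMA2, PSMA5, PSMC4 and PSMD9, all below 0, and PSME2 above it. The medians of the 45 genes were 0.10, 0.03 and -0.07. All 7 constitutive beta ring genes had a GV2 coefficient above that of GV1 by 0.12 to 0.30, and a GV3 coefficient below that of GV2 by 0.01 to 0.46, none of which was called. Of the 13534 named genes 6973 were above 0 in GV2 against GV1 and 7211 below 0 in GV3 against GV2. In GV3 against GV2, 6 of 7 alpha ring, 4 of 7 lid, 3 of 6 base ATPase and 0 of 3 base non-ATPase genes were below 0. By area the median of GV3 minus GV2 in the beta ring was -0.20, 0.00, -0.09 and -0.67, so that area 4 held the largest difference.

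Genes around the proteasome were read from 3 lists. Of the 31 genes kept from them 2, 3 and 6 were called higher in GV1, GV2 and GV3, beside 3.78%, 4.58% and 4.3% of the named genes. In the MHC class I list, 7 of 8 genes were kept and had medians of 0.56, 0.63 and 0.77, and 1, 2 and 3 were called higher and 0 lower. TAP2, which with TAP1 moves proteasome products into the endoplasmic reticulum, had 0.76, 0.63, 0.94 and 0.94 in GV1, 0.42, 0.48, 0.61 and 1.01 in GV2, and 0.90, 0.73, 0.58 and 1.02 in GV3. It was above 0 on all 12 arrays, with coefficients of 0.82, 0.63 and 0.81 (SE 0.10 each, adjusted p = 0.00138, 0.00458 and 0.00129). TAP1 was called in GV3 (0.33, SE 0.09, adjusted p = 0.0319), with GV0 above background on 8 of 12 arrays. B2M, the light chain of MHC class I, was called in GV3 (1.08, SE 0.32, adjusted p = 0.0491), with -0.09 and 0.06 in area 1 of GV1 and GV2. NLRC5, an activator of MHC class I genes, was called in GV2 (0.65, SE 0.19, adjusted p = 0.0494).

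Of 15 proteasome partners kept from a list of 17, 0, 1 and 1 were called higher and 0 lower. AKIRIN2, which carries proteasomes into the nucleus in human cells, was called in GV2 (0.68, SE 0.13, adjusted p = 0.00997). NFE2L1, a transcription factor of proteasome genes, was called in GV3, with 0.28, 0.75, 0.52 and 0.68 on the GV3 arrays (0.56, SE 0.11, adjusted p = 0.00977). In GV1 it had 0.13, 0.13, 0.14 and 0.05, and in GV2 0.36, -0.15, 0.55 and -0.04. The GV1 arrays lay below those of GV3 and the GV2 arrays overlapped both, but GV3 against GV1 did not pass the test (0.45, SE 0.16, adjusted p = 1.00, rounded). The assembly factor POMP was at -0.05, -0.09 and -0.11. Of 9 genes of ubiquitin supply and delivery kept from a list of 15, 1, 0 and 2 were called higher and 0 lower. These were BAG6 (BAT3 on the array), a chaperone of stray membrane proteins, in GV1 (0.49, SE 0.12, adjusted p = 0.0297) and GV3 (0.43), and NPLOC4, a cofactor of the ATPase VCP, in GV3 (0.40, SE 0.11, adjusted p = 0.0388).

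Markers of other cells and of the interferon response were set beside the immune subunits. Over all named genes 3.78%, 4.58% and 4.3% were called higher and 5.69%, 5.73% and 6.7% lower. Of 15 interferon response genes 0, 2 and 1 were called higher and 0, 1 and 1 lower, and their median was 0.76 on the GV1 array of area 3 and -0.06 to 0.20 on the other arrays. Of 8 theca and stroma markers 1, 0 and 0 were called higher and 1, 1 and 0 lower, with a median of 1.36 on that array and -0.31 to 0.24 on the others. Of 8 leukocyte markers 3, 1 and 2 were called higher and 0 lower, with a median of 0.46 on that array and -0.04 to 0.20 on the others. Their coefficients were above 0 for 5, 4 and 4 markers and below 0 for 3, 4 and 4, with medians of 0.08, -0.05 and 0.07. Of 5 endothelial markers 0 were higher and 2 lower in each stage, namely EGFL7 (-0.46, -0.38 and -0.46) and ESAM (-0.22, -0.27 and -0.21), with a median of -0.32 to 0.05 over the arrays. Of 7 oocyte markers 1, 2 and 1 were called higher and 1, 1 and 1 lower, with a median of -0.08 to 0.32. Of 3 red blood cell markers 0, 1 and 0 were called higher and 0 lower, with a median of -0.14 to 0.24. PTPRC and CD68 exceeded background in both channels throughout, and BOLA-DRA was above background on 1 of 12 arrays in GV0. The GV1 array of area 3 held the highest PSMB8 ratio of GV1, 0.78, and the lowest PSMB9 ratio, -0.89. Without it PSMB8 was at 0.44 in GV1 (adjusted p = 0.0467) and PSME1 at 0.52 (adjusted p = 0.0740). The part of such cells in the PSMB8 and PSME1 values was not tested.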

How the data were processed

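Per the labels' protocols, cumulus cell RNA was amplified, labelled and hybridised to 2-colour arrays. The deposited scanner tables hold mean and median spot intensity and background intensity per channel, with no normalisation per the file headers, and a spot flag, which is other than a measured level and, as deposited by the authors, holds 0 or 1, by a rule not given in the sources used here. Log2 ratios deposited by the authors in the series matrix served as an alternative. Its array values correlated between 0.882 and 0.909 with those used here.

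Background was corrected with normexp (offset 50) on mean signals, without spots that carry the flag, and ratios were normalised by loess within arrays (limma 3.58.1, R 4.3.3, statmod 1.5.0). Probes stayed in if, on 3 or more of the 4 arrays of a stage, either channel lay more than 2 SD over the mean of the negative controls. One limma model fitted a coefficient per stage (9 residual degrees of freedom). That model does not pair the arrays. If stages share GV0 pools, these degrees of freedom overstate the information and p-values against GV0 may run low. The scripts were run on simulated data with planted changes, as a check of the fitted ratios and not of the calls. The precision is limited by the number of arrays.

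The area number was taken to pair arrays in an alternative fit, since deviations from the stage means correlated between 0.492 and 0.735 in all 12 pairs. Whether the GV0 pool or the position on the slide underlies this was not tested. A within-area correlation of 0.463 was used for the random effect.

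Genes were named by the platform annotation and the RefSeq table of ARS-UCD2.0. All 46 symbols matched. Genes given with values are those called, the catalytic subunits and their immune counterparts, PSME1 and PSME2, those with the largest coefficient of a role, those whose probes disagree in call, and genes of the lists that were called. The members and lists were chosen with earlier results of these data known. Alternatives changed the signal, background, scaling, filter, probe rule, block and replicates.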

Additional observations from a re-analysis of the deposited data

Results flagged for a closer look

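In 87 groups of 4 arrays, formed by 17 genes given with values and the medians of the role groups in each stage, Dixon's test at the 95% level singled out 1 value, and chance gives about 1 group in 20. PSMB6 had a log2 ratio of -0.84 on the GV1 array of area 1, and the other GV1 arrays lay between 0.21 and 0.36. On the other slides area 1 was also the lowest, at -0.22 in GV2 and -0.65 in GV3. The second PSMB6 probe had -0.88 on the same array.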

How the results depend on the processing

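The counts of called proteasome genes against GV0 (2, 2 and 3 in GV1, GV2 and GV3) moved most with the replicate block (13, 19 and 16), as did the share of named genes called (9.47%, 10.3% and 11%, with the block 29.8%, 29.7% and 30.8%). They were 0, 0 and 1 with median spot signals (named genes 0.894%, 1.29% and 2.6%), 0, 0 and 4 with flag-bearing spots in the normexp fit (0.576%, 1.27% and 13.6%), 4, 7 and 5 with median centring (14.7%, 15.9% and 13%), 1 in GV1 with both channels above background on all arrays (4.61%), 0 and 0 in GV1 and GV2 with series matrix values (0.924% and 1.54%), 0, 0 and 0 on the arrays of 1 stage alone (0% each), and 0, 0 and 1 with a fold of at least 1.5 (2.7%, 3.2% and 4.21%). Median centring moved the GV2 median to 0.47. Leaving out 1 array, or 1 area on all slides, gave 0 to 4, 0 to 5 and 1 to 5 calls, and medians of 0.05 to 0.30 in GV1, 0.17 to 0.27 in GV2 and 0.03 to 0.25 in GV3. Between stages these medians were -0.03 to 0.18 (GV2 against GV1), -0.10 to 0.11 (GV3 against GV1) and -0.14 to 0.00 (GV3 against GV2), and calls were 0 under all alternatives, the block included. The highest counts without a replicate came without area 1 of all slides (4, 5 and 5), and 0 calls came in GV1 without area 3 or 4, and in GV2 without area 2 or 4. Of 2856 values of single genes under alternatives, 2593 kept their sign and stayed called or not called, 57 lost the call and 40 gained it. A further 166 changed sign with no call in either fit, and 0 changed sign where either fit gave a call. The causes were not tested.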
